A study of Mus musculus with 26 samples.

Results

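Neutrophil granule protein genes encode the enzymes and antimicrobial proteins that neutrophils store before they meet bacteria. They were described here through 10 genes chosen by name, of the 50104 gene identifiers that the 3 deposited tables share. The primary granule members are Elane, Mpo, Prtn3 and Ctsg, and the members of later granules are Camp, Ngp, Ltf and Lcn2. Cebpe, a transcription factor of granulocyte maturation, and Ly6g, a neutrophil surface protein, complete the list. RNA was sequenced from 26 samples of FACS sorted cells of naive female mice, either WT or ACKR2-/-, which lack an atypical chemokine receptor, and no other allele or agent was given. There were 4 samples per genotype of bone marrow monocytes, 4 of small peritoneal macrophages (SPMs) and 5 of MHCII negative lung macrophages. The methods state that cells of several mice were pooled for each monocyte and SPM sample, that WT mice were purchased C57BL/6J and that ACKR2-/- mice were bred in the authors' facility. Age is not in the labels, and litter and housing cannot be told apart from the genotype.

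In the bone marrow, granule genes are switched on in sequence as granulocyte progenitors mature. Primary granule enzymes are made first, at the promyelocyte stage, and their mRNA is largely gone from mature cells. Proteins of the later granules, such as lactoferrin and lipocalin 2, follow under the control of C/EBP family factors, and Ly6g marks cells that are committed to the neutrophil line. The monocyte gate used here removed cells with Ly6G protein and kept CD11b+ Ly6C+ cells. In bulk samples, fewer cells of a type and less RNA per cell cannot be told apart.

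Counts on genes ranged from 15450670 to 19218213 per monocyte sample, from 12781144 to 35400034 per SPM sample and from 19950019 to 29770252 per lung sample. Ackr2 itself had 5 to 9 reads in WT SPMs and 0 reads in all 4 ACKR2-/- SPM samples. In WT monocytes it had 0 to 2 reads. In the lung, samples labelled ACKR2-/- held 7 to 50 Ackr2 reads and those labelled WT held 0 to 469, with 0 in the library labelled WT replicate 5, so that the gene does not check these labels, and lung samples are given by their labels throughout. In monocytes, all 8 T cell markers of a fixed list were called higher in ACKR2-/- samples. Their summed level was 63.9 to 110 CPM (counts scaled to 1e6 per library) there and 3.23 to 4.87 in WT, and Cd3d had the smallest p of the list (log2 fold change 4.38, SE 0.22, adjusted p = 3.57e-06, edgeR). The part of these cells in the results below was not tested. In the lung, 1 library stood apart, since 8 SPM genes summed to 85371 CPM in the sample labelled WT replicate 3 and to 3906 to 8939 CPM in the other 9.

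Promoter sequences are shown for Elane and Prtn3, neighbours on chromosome 10 whose levels part in SPMs, and for Lcn2, the abundant member whose monocyte genotypes did not overlap. They are RefSeq sequences of GRCm38.p6, read along the gene's strand from 250 bases before the start site to 50 bases after its first base. The Prtn3 sequence lies inside the counted gene, which runs from 79874476 to 79883174. The Lcn2 sequence likewise lies inside its counted gene, from 32384633 to 32388252, and the counted Elane gene starts at 79886247, within the sequence shown. Reads counted for these genes thus need not come from transcripts that begin at the start sites shown. Capitals mark matches on either strand to TTGCNNAA, a C/EBP motif, or GAGGAA, a PU.1 motif.
Elane, chr10:79886062-79886361, + strand: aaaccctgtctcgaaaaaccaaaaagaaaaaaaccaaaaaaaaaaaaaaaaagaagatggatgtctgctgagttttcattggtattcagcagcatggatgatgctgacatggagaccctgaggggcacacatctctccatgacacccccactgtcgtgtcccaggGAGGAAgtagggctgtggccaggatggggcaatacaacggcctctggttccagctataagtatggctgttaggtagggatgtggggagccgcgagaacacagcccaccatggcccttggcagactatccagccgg
Prtn3, chr10:79879417-79879716, + strand: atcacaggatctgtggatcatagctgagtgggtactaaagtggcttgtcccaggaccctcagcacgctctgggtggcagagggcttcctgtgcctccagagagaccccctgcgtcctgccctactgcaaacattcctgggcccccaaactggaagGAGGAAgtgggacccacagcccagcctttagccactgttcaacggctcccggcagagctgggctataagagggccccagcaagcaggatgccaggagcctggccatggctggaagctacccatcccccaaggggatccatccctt
Lcn2, chr2:32387690-32387989, - strand: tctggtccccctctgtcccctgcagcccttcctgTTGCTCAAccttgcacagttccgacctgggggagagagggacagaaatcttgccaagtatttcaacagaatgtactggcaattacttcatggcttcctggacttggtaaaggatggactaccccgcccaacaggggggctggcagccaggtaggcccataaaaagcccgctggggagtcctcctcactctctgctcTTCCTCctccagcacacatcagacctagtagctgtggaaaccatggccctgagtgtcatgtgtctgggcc

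The PU.1 letters began 85 bases before the start site in Elane and 95 bases before it in Prtn3 (positions -85 and -95), on the same strand as the gene. In Lcn2, the C/EBP letters lay at -216, and the PU.1 letters at -20 on the other strand. A promoter was matched for 9 of the 10 members, all but Cebpe. GAGGAA was present in 7 of these 9, which are Elane, Mpo, Prtn3, Ctsg, Ltf, Lcn2 and Ly6g, and in 28.3% of all 32851 promoter sequences. TTGCNNAA was present in 4, which are Ngp, Ltf, Lcn2 and Ly6g, and in 10.8% of all promoters. Of the 4 primary members none held the C/EBP letters, while 3 of the 4 later members did. TGTGGT, a motif of RUNX factors, was present in Ctsg and Ltf and in 16.8% of all promoters. No match of one motif lay over a match of another in these members, and a match is a description of letters only.

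Elane, Prtn3 and Ctsg are related serine proteases. A coding stretch of 30 bases around the codon of the catalytic serine is shown to tell how far reads of these genes can be kept apart, with capitals where a base differs from Elane.
Elane: tgcttcggggactctggcggacccttggtc
Prtn3: tgcttcggAgactcGggcggCcccttgAtc
Ctsg: tTcAGGggTgaTtctggTggCcccCtggtA
Prtn3 differed from Elane at 4 of the 30 bases, and Ctsg at 10. Over whole transcripts in GENCODE M21, 0% of the 50-base words of Elane, Ctsg, Camp, Ngp, Ltf, Lcn2 and Cebpe were found in any other gene. The share was 0.448% for Ly6g, 6.45% for Prtn3, which overlaps Plppr3 on the opposite strand, and 9.46% for Mpo, which overlaps the antisense gene Gm11505. The sources used here do not state whether reads were counted by strand. Plppr3 reached at most 2.84 CPM in SPMs and Gm11505 at most 0.683 CPM in monocytes, below every Prtn3 and Mpo value of the same samples. In the lung Plppr3, at 5.64 to 19.9 CPM, exceeded Prtn3, at most 0.944 CPM.

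In monocytes, the granule genes were among the most abundant mRNAs. The 10 members together took 3.07% to 6.71% of all gene counts in WT samples and 1.47% to 5.22% in ACKR2-/- samples. Levels of different genes were compared per kilobase (kb) of gene length. In WT monocytes Ngp, which encodes a cathelin-related granule protein, had a mean of 12012 CPM per kb and was at rank 5 of 13246 tested genes. Camp, the precursor of the cathelicidin antimicrobial peptide, ranked 6 at 11946 CPM per kb, and Elane, neutrophil elastase, ranked 7 at 10158. Mpo, myeloperoxidase, ranked 23, and the proteases Prtn3 and Ctsg ranked 38 and 41. The iron-binding proteins were lower, with Lcn2 at rank 106 and Ltf at rank 150. Cebpe ranked 762 and Ly6g 3714. In ACKR2-/- monocytes Elane ranked 5, Camp 6 and Ngp 7, while Lcn2 was at rank 415 and Ltf at rank 446.

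**Figure D1:**
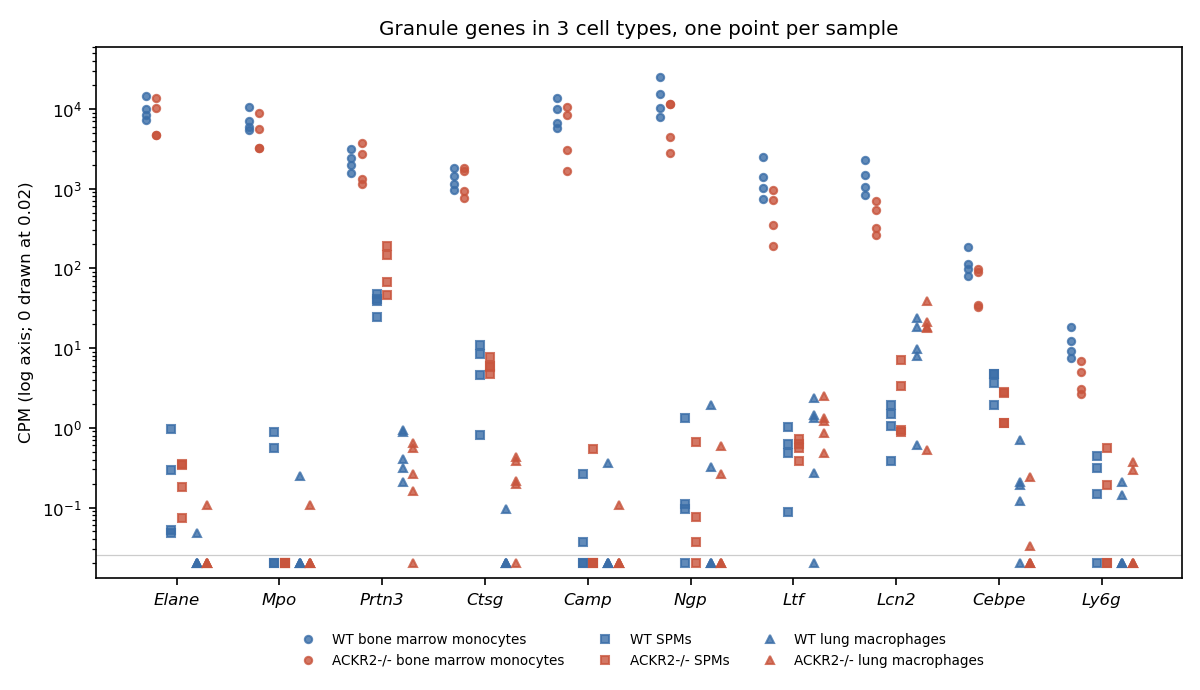
Level of each member in every sample of the 3 cell types, as CPM on a log axis with samples at 0 drawn at 0.02 below the grey line. CPM are scaled within each cell type, so distances between cell types are not the fitted differences. Circles are monocytes, squares SPMs and triangles lung macrophages, in blue for WT and red for ACKR2-/-. Monocytes lie highest for all 10 members, Prtn3 is the highest member in SPMs and Lcn2 the highest in every lung sample.

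The genotypes were compared within monocytes to ask whether ACKR2 deficiency altered these genes. All 10 members passed the filter on low counts and all 10 had a lower fitted level in ACKR2-/- samples, with a median log2 fold change of -0.75 beside 0.00 over all 13246 tested genes. A gene was called where edgeR's quasi-likelihood test gave an adjusted p below 0.05 with a log2 fold change beyond 0.5 in size. No member was called, beside 1.27% of all genes, 0.913% higher and 0.355% lower. At an unadjusted p under 0.05, 4 members were lower and 0 higher, beside 8.17% of all genes lower and 8.83% higher. DESeq2 called 2 members, Lcn2 and Ly6g, beside 3.31% of all genes. The genotypes did not overlap for these same 2 members, beside 5.25% of all genes with every ACKR2-/- sample below every WT sample and 4.94% with every one above.

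The primary granule genes overlapped widely. Elane was at 8294, 14468, 7328 and 9892 CPM in WT replicates 1 to 4 and at 10414, 13725, 4694 and 4761 CPM in ACKR2-/- replicates 1 to 4. The ACKR2-/- samples were thus split, with replicates 1 and 2 inside the WT range and replicates 3 and 4 below it. The fitted log2 difference was -0.25 (SE 0.36, adjusted p = 0.76, edgeR).

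Mpo makes hypochlorous acid in the phagosome. It was at 7158, 10613, 5470 and 5940 CPM in WT and at 8907, 5648, 3264 and 3285 CPM in ACKR2-/- monocytes. Its log2 fold change was -0.47 (SE 0.34, adjusted p = 0.504, edgeR), and replicates 3 and 4 were again the low ones. Prtn3, proteinase 3, was at 1965, 3127, 1597 and 2441 CPM in WT and at 2761, 3740, 1140 and 1338 CPM in ACKR2-/- samples, where replicate 2 was the highest of all 8. Ctsg, cathepsin G, was at 1131, 1803, 956 and 1454 CPM in WT and at 1821, 1672, 761 and 927 CPM in ACKR2-/- samples. For Prtn3 and Ctsg the log2 fold changes were -0.02 (SE 0.35) and -0.04 (SE 0.29), with 95% intervals of -0.72 to 0.67 and -0.62 to 0.53.

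The later granule genes were lower on average, and by unequal amounts. Camp was at 6724, 13763, 5703 and 10029 CPM in WT and at 8421, 10643, 1691 and 3090 CPM in ACKR2-/- samples (log2 fold change -0.60, SE 0.50, adjusted p = 0.562, edgeR). Ngp was at 10240, 24952, 8002 and 15520 CPM in WT and at 11449, 11430, 2809 and 4402 CPM in ACKR2-/- samples (log2 fold change -0.96, SE 0.47, adjusted p = 0.325, edgeR). Both genes overlapped between the genotypes through ACKR2-/- replicates 1 and 2.

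Ltf encodes lactoferrin, which withholds iron from bacteria. It was at 1029, 2492, 734 and 1403 CPM in WT monocytes and at 970, 730, 191 and 348 CPM in ACKR2-/- monocytes. Here 3 of the 4 ACKR2-/- samples lay below every WT sample, and replicate 1 lay inside the WT range. This gave a log2 fold change of -1.34 (SE 0.48, unadjusted p = 0.016, adjusted p = 0.191, edgeR quasi-likelihood test).

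Lcn2 encodes lipocalin 2, which binds bacterial siderophores. It was at 1048, 2295, 837 and 1502 CPM in WT and at 546, 700, 260 and 317 CPM in ACKR2-/- monocytes. Every ACKR2-/- sample lay below every WT sample, and the exact two-sided permutation test gave p = 0.029, the smallest that 4 samples against 4 allow. The log2 fold change was -1.64 (SE 0.36, unadjusted p = 0.00070), and the adjusted p of 0.053 from edgeR just missed the threshold. DESeq2 gave the same log2 fold change of -1.64 with an adjusted p of 0.017, and over all alternatives the adjusted p ran from 0.00171 to 0.86, the last in the fit of all groups. It was 0.034 without ACKR2-/- replicate 2 and 0.049 without WT replicate 3 (edgeR). Without ACKR2-/- replicates 3 and 4, a choice made after the data were seen, the log2 fold change was -1.18 (adjusted p = 0.056, edgeR).

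Ly6g followed Lcn2 at a far lower level. It was at 9.31, 18.2, 7.46 and 12.4 CPM in WT and at 6.94, 5.07, 2.68 and 3.03 CPM in ACKR2-/- monocytes, from 134 to 293 and from 51 to 129 reads per sample. The genotypes did not overlap, although replicate 1 of the ACKR2-/- samples came close to WT replicate 3. The log2 fold change was -1.42 (SE 0.34, adjusted p = 0.072 in edgeR and 0.0028 in DESeq2, with a range of 0.00276 to 0.992 over all alternatives), and without ACKR2-/- replicate 1 the adjusted p was 0.037. Cebpe was at 97.6, 188, 79.7 and 115 CPM in WT and at 91.2, 98.4, 34.8 and 33.0 CPM in ACKR2-/- samples, with a log2 fold change of -0.90 (SE 0.37, adjusted p = 0.25, edgeR).

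**Figure D2:**
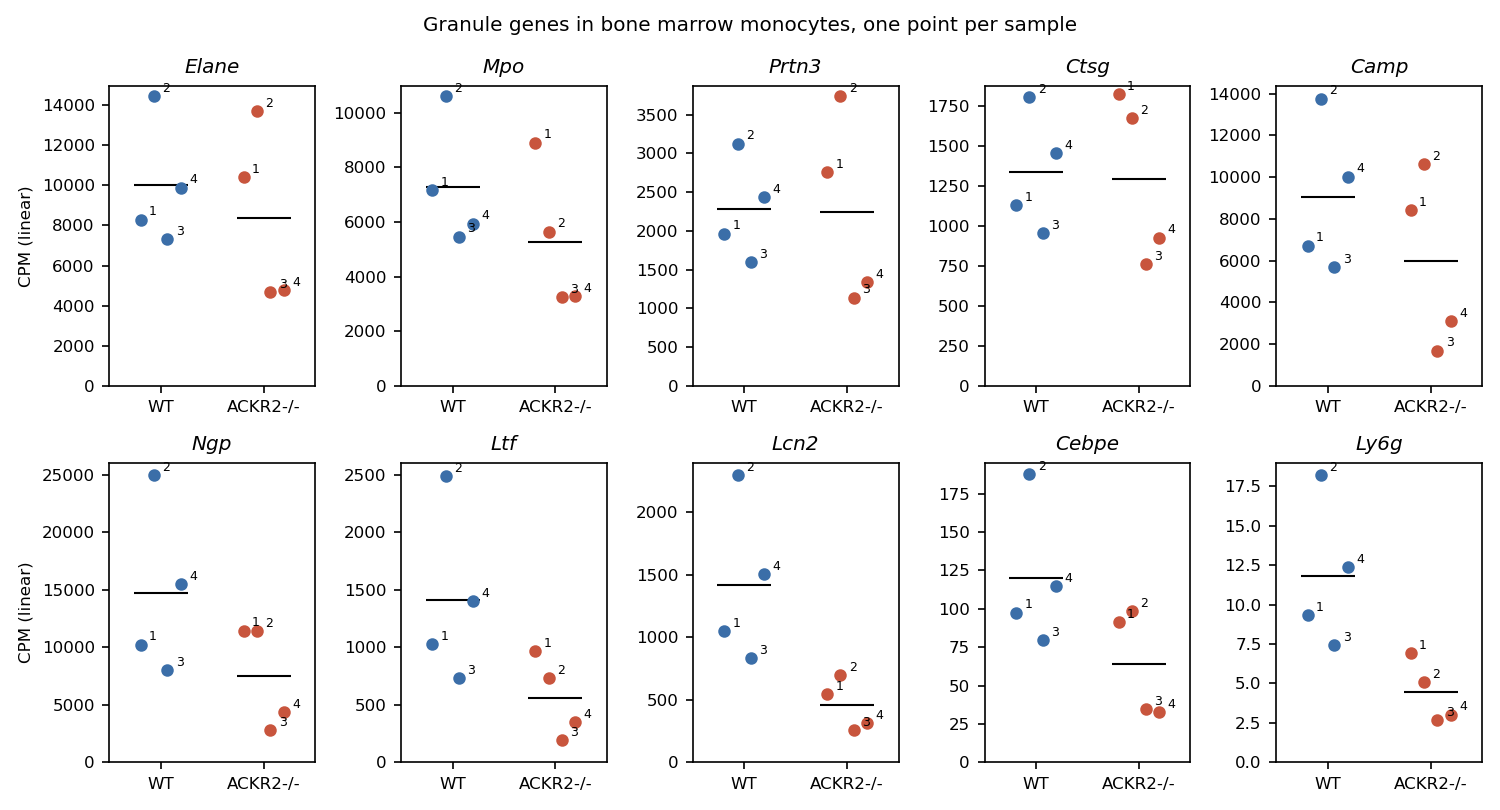
CPM of each member in the 8 monocyte samples on linear axes that start at 0, with the replicate number beside each point and the group mean as a bar. ACKR2-/- replicates 3 and 4 are the lowest samples for every member. Replicates 1 and 2 lie within or above the WT range for the primary granule genes and below it for Lcn2 and Ly6g.

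ACKR2-/- replicates 3 and 4 were the lowest samples for every member. Leaving them out together, a choice made after the data were seen, thus raised every fitted value. The log2 differences of Elane (0.29, SE 0.27), Mpo (0.01, SE 0.28), Prtn3 (0.52, SE 0.25), Ctsg (0.40, SE 0.23) and Camp (0.09, SE 0.32) then lay above 0. Those of Ngp (-0.35, SE 0.38), Ltf (-0.72, SE 0.38), Cebpe (-0.33, SE 0.27), Lcn2 (-1.18, SE 0.34) and Ly6g (-0.96, SE 0.33) stayed below it. For Elane, Mpo, Camp, Ngp and Cebpe the value was about the size of its SE or less, so these signs do not sort the members. No member was called in that fit, which called 1136 of 13816 genes.

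**Figure D3:**
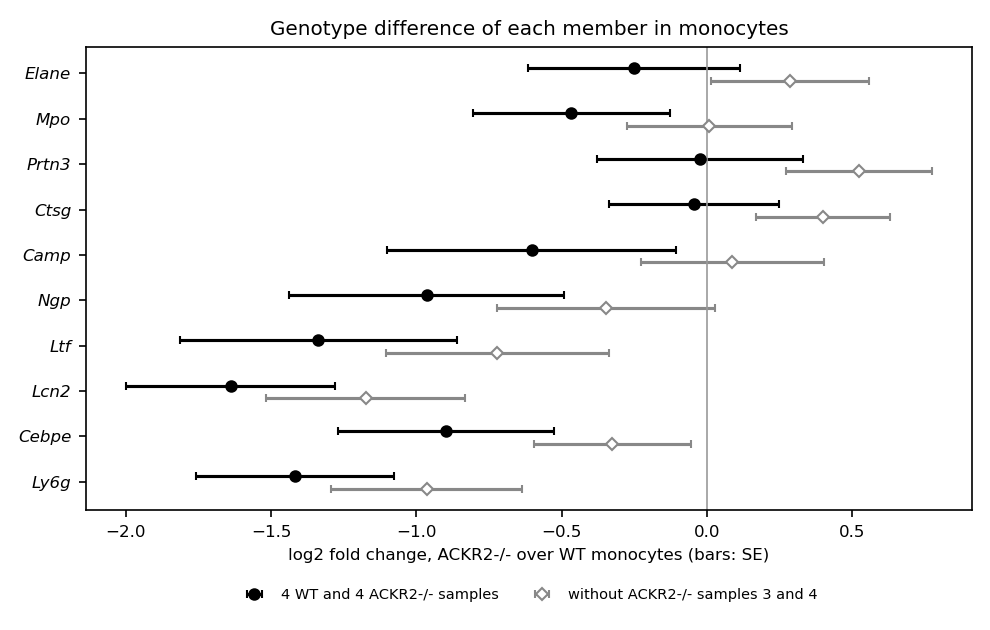
Log2 fold change of each member in ACKR2-/- over WT monocytes with its SE, from all 8 samples (black) and without ACKR2-/- samples 3 and 4 (open diamonds). Samples 3 and 4 are the lowest for every member, so the second fit lies higher for each. The primary granule genes lie below 0 in the first fit and above 0 in the second, while Lcn2 (-1.64 and -1.18) and Ly6g (-1.42 and -0.96) stay below it.

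Within a sample, the balance of the members could be set against Elane, a ratio chosen after the data were seen and given without a test. Lcn2 per kb was 4.74%, 5.95%, 4.29% and 5.70% of Elane per kb in WT replicates 1 to 4. In ACKR2-/- replicates 1 to 4 it was 1.97%, 1.91%, 2.08% and 2.50%. The ACKR2-/- samples were thus alike in this ratio although their Elane levels differed up to 2.92-fold. Ltf per kb was 2.86% to 4.91% of Elane in WT and 1.16% to 2.66% in ACKR2-/- samples, again without overlap, although Ltf itself overlapped between the genotypes. Among single genes, 5.25% were lower and 4.94% higher in ACKR2-/- samples without overlap. The share of other gene ratios without overlap was not computed. Prtn3 per kb was 0.123 to 0.140 of Elane in WT and 0.138 to 0.160 in ACKR2-/- samples. The mean log2 CPM of the 4 later members was 0.28 below to 0.30 above that of the 4 primary members in WT (-0.28 to 0.30), and -1.45 to -0.74 relative to it in ACKR2-/- samples.

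**Figure D4:**
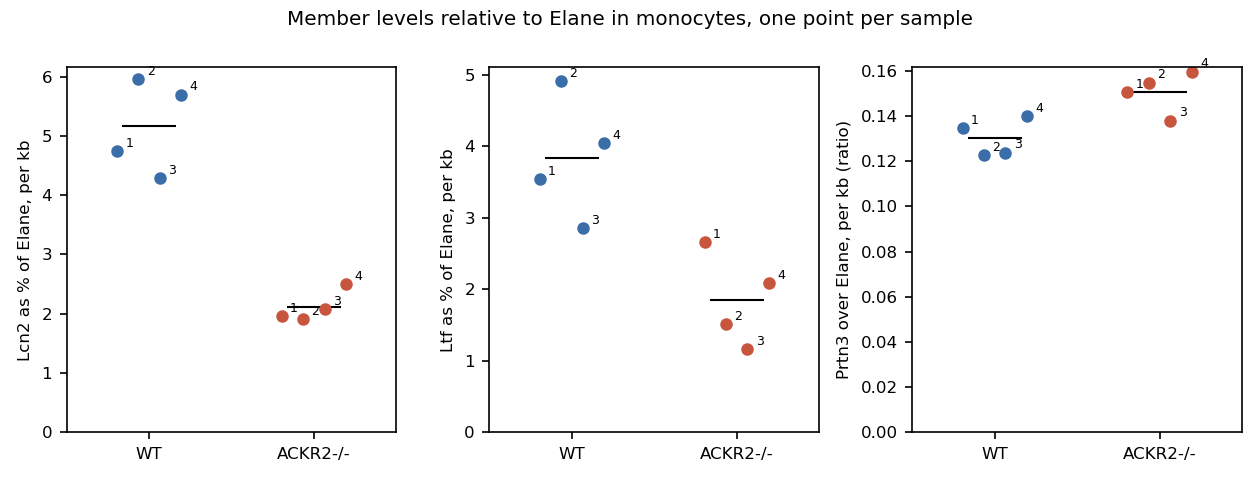
Lcn2, Ltf and Prtn3 relative to Elane in each monocyte sample, all per kb of gene length, with replicate numbers and the group mean as a bar. Lcn2 is 4.29% to 5.95% of Elane in WT and 1.91% to 2.50% in ACKR2-/- samples, while the Prtn3 ratio lies between 0.123 and 0.160 throughout.

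The members varied together across samples. After the genotype means were subtracted, the 45 pairs of members had Pearson correlations of 0.79 to 0.99 over the 8 monocyte samples, with a median of 0.95. The median was 0.92 among the 4 primary members, 0.96 among the 4 later members and 0.95 between them. These values share libraries and depth and are given as a description. Outside the list, Dgat1, Clec12a, Stk16, Fam221a and Gm807 had the pattern most like the mean of the primary members (r from 0.994 to 0.996 over the 8 samples). Fbxo17, Chit1, Orm1, Spout1 and Rdh12 were most like the later members (r from 0.990 to 0.998). Orm1 and Chit1 had log2 fold changes of -0.95 and -0.61.

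Other genes of the granule programme were examined in lists. Of 11 other primary granule genes, 10 were tested in monocytes and 0 were called in either direction, with a median log2 fold change of -0.38. All 10 fitted values lay below 0. Lyz2, lysozyme, was the most abundant at means of 54405 CPM in WT and 45138 CPM in ACKR2-/- samples (log2 fold change -0.27). Fcnb, a secreted lectin, had the largest difference at means of 2019 and 1337 CPM (log2 fold change -0.59, SE 0.38), and Serpinb1a, an inhibitor of these proteases, followed at -0.54 (SE 0.28).

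Of 14 other genes of later granules, all 14 were tested, 0 were called by edgeR and 13 had fitted values below 0, with a median of -0.63. At an unadjusted p under 0.05, 6 were lower and 0 higher. DESeq2 called 3 of them. Chil3, a chitinase-like protein, was at means of 8359 CPM in WT and 5610 CPM in ACKR2-/- monocytes (log2 fold change -0.58, SE 0.18). Cd177, a neutrophil surface protein, was at 422 and 255 CPM (-0.73, SE 0.17), and Mmp9, gelatinase B, was at 2.10 and 0.738 CPM (-1.49, SE 0.37). For Chil3, Cd177 and Mmp9 the adjusted p was 0.149, 0.072 and 0.0835 in edgeR and 0.0022, 0.0051 and 0.019 in DESeq2. Itgb2l had a log2 fold change of -0.98 (SE 0.46), and Cyba, a subunit of the NADPH oxidase, had one of 0.00 (SE 0.19).

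Among 10 regulators of granulocyte and monocyte fate, 0 were called. Cebpa, the C/EBP factor of early progenitors, was at means of 14.3 CPM in WT and 9.99 CPM in ACKR2-/- samples (log2 fold change -0.52, SE 0.17, adjusted p = 0.15, edgeR). Gfi1, a repressor needed for neutrophils, had -0.52 (SE 0.37), Spi1, which encodes PU.1, had -0.25 (SE 0.15), and Irf8, a factor of the monocyte line, had 0.29 (SE 0.14). Of 8 mature neutrophil genes, 7 were tested and 0 called. S100a8 and S100a9 were highly abundant, at means of 16085 and 18647 CPM in WT and of 11348 and 10400 CPM in ACKR2-/- samples. Cxcr2, the chemokine receptor of mature neutrophils, was at 14.1 and 6.32 CPM (log2 fold change -1.16, SE 0.32, adjusted p = 0.11 in edgeR and 0.017 in DESeq2).

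In the list of early progenitor genes, 1 of 6 tested genes was called. Cd34, a surface protein of progenitors, rose from a mean of 8.99 CPM in WT to 21.5 CPM in ACKR2-/- monocytes (log2 fold change 1.26, SE 0.27, adjusted p = 0.047, edgeR). Kit, at means of 11.5 and 9.72 CPM, had a log2 fold change of -0.24, and Hlf had one of -0.98, and neither was called. Summed over 7 erythroid genes, the level was 252 to 311 CPM in WT monocytes, 1246 and 497 CPM in ACKR2-/- replicates 1 and 2 and 110 and 67.3 CPM in replicates 3 and 4, the libraries with the lowest members. The part of erythroid cells in the members' levels was not tested. The sum over 8 monocyte genes was 8329 to 8997 CPM in WT and 5027, 6930, 9486 and 7984 CPM in ACKR2-/- replicates 1 to 4, and 0 of the 8 were called. The sum over 8 mature neutrophil genes was 24440 to 49381 CPM in WT and 32962, 34255, 7790 and 12589 CPM in ACKR2-/- replicates 1 to 4. The part of these cell types in the members' levels was not tested.

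In SPMs, which differentiate from monocytes, Prtn3 was the most abundant member in every sample. The members took 0.00368% to 0.00586% of gene counts in WT and 0.00710% to 0.0193% in ACKR2-/- samples. Of the 10 members, 5 passed the filter on low counts, and 0 were called, beside 0.0462% of all 12997 tested genes, 0.0308% higher and 0.0154% lower. At an unadjusted p under 0.05, 1 member was higher and 1 lower, beside 2.93% of all genes higher and 2.52% lower. DESeq2 called 0 members, beside 0.17% of all genes. The genotypes overlapped for all 10 members, where 1.6% of tested genes were lower and 1.8% higher without overlap.

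Prtn3 was at 24.7, 38.5, 41.2 and 48.0 CPM in WT SPMs and at 190, 66.6, 46.1 and 148 CPM in ACKR2-/- SPMs. Replicates 1, 2 and 4 of the ACKR2-/- samples lay above every WT sample and replicate 3 lay inside the WT range. The log2 fold change was 1.56 (SE 0.42, unadjusted p = 0.0033, adjusted p = 0.79 in edgeR and 0.090 in DESeq2), and the adjusted p was 0.046 when no filter on low counts was used, with a range of 0.0457 to 1 over all alternatives. The exact two-sided permutation test on CPM gave p = 0.057.

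ACKR2-/- replicates 1 and 4 stood apart in other genes as well. Ly6c2, a marker of classical monocytes, was at 380 and 707 CPM in these replicates, at 32.3 and 23.9 CPM in the other ACKR2-/- samples and at 16.8 to 56.6 CPM in WT. Irf8 was at 39.7 and 47.2 CPM in them and at 6.24 to 11.4 CPM in the other 6 samples. Without replicates 1 and 4, a choice made after the data were seen, the log2 fold change of Prtn3 was 0.57 (SE 0.32, adjusted p = 1.00, edgeR). Other marker lists were also highest in replicates 1 and 4. Their sums there were 1335 and 1762 CPM for large peritoneal macrophages, beside 302 to 736 CPM in the other 6 samples. For alveolar macrophage genes they were 455 and 416 CPM, beside 18.2 to 67.4 CPM. For natural killer (NK) cell genes they were 34.6 and 70.7 CPM, beside 2.54 to 13.2 CPM. The T cell sum was not, at 269 and 222 CPM beside 255 to 497 CPM. The part of monocytes and of these other cells among the sorted cells was not tested. The sum over all 8 monocyte genes of the list was 1372 to 2906 CPM in WT and 1178 to 2001 CPM in ACKR2-/- SPMs, since Ccr2, the most abundant of them, had means of 961 and 422 CPM.

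Reads of Prtn3 were not matched by its neighbour. Elane, on the same strand of chromosome 10, had 1 to 11 reads per WT SPM sample and 2 to 13 per ACKR2-/- SPM sample, at most 0.967 CPM. Mpo had 0 reads in all 4 ACKR2-/- SPM samples, which allows up to 0.0773 to 0.115 CPM per sample, and 0, 0, 10 and 15 reads in WT. Per kb, Prtn3 was 24.2 to 423 times Elane in WT SPMs and 145 to 516 times in ACKR2-/- SPMs, and 0.123 to 0.160 of it in monocytes.

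Ctsg, the other protease seen in SPMs, was at 0.815, 4.59, 10.99 and 8.46 CPM in WT and at 4.75, 6.01, 7.63 and 5.76 CPM in ACKR2-/- samples, all inside the WT range (log2 fold change -0.03, SE 0.56). Cebpe was at 4.74, 4.80, 1.93 and 3.70 CPM in WT and at 1.15, 2.71, 2.81 and 1.16 CPM in ACKR2-/- samples, and its log2 fold change was -0.96 (SE 0.40, adjusted p = 0.79, edgeR). Lcn2 was at 0.383, 1.91, 1.06 and 1.48 CPM in WT and at 3.33, 0.880, 0.927 and 7.19 CPM in ACKR2-/- samples. The high Lcn2 samples were again replicates 1 and 4, and without them its difference turned from 1.35 to -0.42 on the log2 scale. Ltf stayed at or below 1.03 CPM, and Camp, Ngp and Ly6g had at most 20, 25 and 21 reads in any SPM sample, with the highest counts in ACKR2-/- replicate 4.

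**Figure D5:**
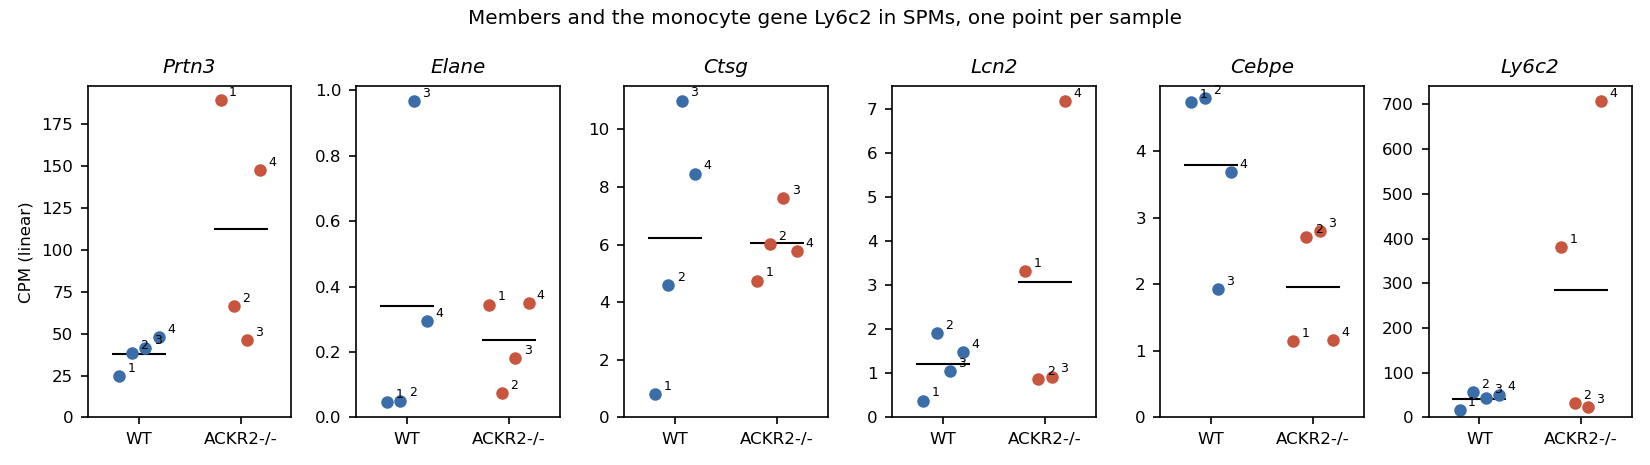
CPM of 5 members and of the monocyte gene Ly6c2 in the 8 SPM samples, on linear axes that start at 0, with replicate numbers and the group mean as a bar. Prtn3 (190 and 148 CPM), Lcn2 and Ly6c2 are highest in ACKR2-/- replicates 1 and 4, Cebpe is lowest there, and Elane stays below 1 CPM.

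The granule lists gave 0 called genes in SPMs. Of the other primary granule genes 7 of 11 were tested, with a median log2 fold change of -0.05. Lyz2 was at means of 103307 CPM in WT and 93435 CPM in ACKR2-/- SPMs, so that lysozyme mRNA was abundant where Elane and Mpo were near 0, while Fcnb had 0 CPM in all WT samples. Of the other later granule genes 11 of 14 were tested, with a median of 0.66 and 4 higher at an unadjusted p under 0.05. The largest differences were those of Wfdc21 at 3.74 (SE 1.32) and Hp, haptoglobin, at 2.56 (SE 0.81). Hp was at 594 and 353 CPM in ACKR2-/- replicates 1 and 4 and at 53.6 and 40.2 CPM in replicates 2 and 3, inside the WT range of 13.7 to 65.5 CPM. Both genes had adjusted p = 0.79 (edgeR). Among 6 tested mature neutrophil genes Fpr1, a formyl peptide receptor, had the largest difference at 2.57 (SE 0.82), while S100a9 had one of 0.24 (SE 0.96). Fpr1, too, was high in ACKR2-/- replicates 1 and 4 (126 and 102 CPM) and inside the WT range of 4.17 to 13.9 CPM in replicates 2 and 3 (9.86 and 8.73 CPM).

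In the lung samples, Lcn2 was the main member. Only Lcn2 and Ltf passed the filter on low counts, and neither was called, beside 0% of all 16824 tested genes. The labels overlapped for all 10 members, where 0.226% of tested genes were lower and 0.22% higher without overlap. At an unadjusted p under 0.05, 0 of the 2 differed, beside 1.72% of all genes lower and 1.24% higher, and DESeq2 called 0 members, beside 0.063% of all genes. Lcn2 was at 23.6, 18.2, 9.61, 7.95 and 0.604 CPM in samples labelled WT and at 38.6, 21.4, 17.9, 0.523 and 18.7 CPM in those labelled ACKR2-/-, replicates 1 to 5. A single sample of each label was far below the rest, WT replicate 5 and ACKR2-/- replicate 4. Between the labels the log2 fold change was 0.69 (SE 0.88, adjusted p = 1.00, edgeR), and the exact two-sided permutation test gave p = 0.37, where 5 samples against 5 can reach 0.0079. Leaving out single libraries moved the log2 fold change from 0.29 (without ACKR2-/- replicate 1) to 1.12 (without WT replicate 1), with 0.40 without WT replicate 5 and 1.02 without ACKR2-/- replicate 4. It was 0.25 without WT replicates 3 and 5 together, which were named for omission because an earlier analysis of these data found them to stand apart.

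Those same 2 libraries held the least surfactant mRNA. Sftpc, which marks alveolar epithelium, was at 207 CPM in WT replicate 5 and 181 CPM in ACKR2-/- replicate 4, and at 3319 to 10145 CPM in the other 8 samples. The sum over 6 epithelial genes was 372 and 233 CPM in these 2 libraries and 5712 to 16753 CPM in the others. The neutrophil genes S100a8 and S100a9 were also lowest in these 2 libraries. S100a8 was at 0.302 CPM in WT replicate 5, 1.77 CPM in ACKR2-/- replicate 4 and 14.3 to 166 CPM in the others. S100a9 was at 0.252, 2.94 and 22.8 to 244 CPM in the same order. Mxd1, of the same marker list, was at 55.3 to 82.8 CPM in all samples labelled WT. Genes of the alveolar macrophage list also ranged widely. The lowest Chil3 level was 82.3 CPM among samples labelled WT and 49.8 CPM among those labelled ACKR2-/-, beside means of 922 and 843 CPM. For Fabp1 the lowest levels were 0.403 and 0.925 CPM, beside means of 15.3 and 17.6 CPM. Epithelial cells also make lipocalin 2. The part of epithelial cells, alveolar macrophages and neutrophils in the Lcn2 level was not tested. Ltf was at 1.32, 2.35, 1.45, 0.274 and 0 CPM in samples labelled WT and at 1.21, 2.53, 1.33, 0.483 and 0.851 CPM in those labelled ACKR2-/- (log2 fold change 0.25, SE 0.88).

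The other 8 members were near 0 in the lung. Elane had 1 read over the 5 samples labelled WT and 2 over the 5 labelled ACKR2-/-, and Mpo had 5 and 2. Prtn3 had 62 and 43, Ctsg 2 and 31, Camp 9 and 2, Ngp 58 and 19, Cebpe 29 and 7, and Ly6g 7 and 16. The Ctsg reads of samples labelled ACKR2-/- were in 4 of 5 libraries, with at most 12 in any (exact two-sided permutation p = 0.048, not adjusted, 10 members), and Ctsg was below the filter on low counts. The mature neutrophil genes S100a8 and S100a9 reached 166 and 244 CPM in ACKR2-/- replicate 5 and at most 25.9 and 40.0 CPM in samples labelled WT. Of the fixed granule lists, 8 of 11 other primary and 12 of 14 other later granule genes were tested in the lung and 0 were called, with medians of -0.13 and 0.18. Lyz2, at means of 19031 and 19798 CPM, and Ctsc, the protease that activates the granule enzymes (log2 fold change -0.84, SE 0.37), were among them.

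Whether the genotype difference depended on the cell type was tested in a single fit of all 26 samples. None of the 10 members was called in any of the 3 contrasts, beside 0.253%, 0.152% and 0.0393% of the 17792 genes for monocytes against SPMs, monocytes against lung macrophages and SPMs against lung macrophages. At an unadjusted p under 0.05 there were 3 members (Mpo, Prtn3, Lcn2), 2 (Ctsg, Lcn2) and 2 (Prtn3, Ctsg), beside 7.46%, 6.07% and 6.15% of all genes, and DESeq2 called 0. Of these, Mpo rested on 0 reads in ACKR2-/- SPMs and Ctsg on 2 reads against 31 in the lung. For Prtn3, the difference in SPMs exceeded that in monocytes by 1.65 (SE 0.68, adjusted p = 0.59, edgeR; written as monocytes minus SPMs, -1.65). For Lcn2 it was -3.05 (SE 1.19, adjusted p = 0.53) for monocytes minus SPMs and -2.35 (SE 1.06, adjusted p = 0.78) for monocytes minus lung macrophages. The lowest adjusted p of any member was 0.37, for Mpo.

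Between cell types, the cell type, the table and the way it was counted cannot be told apart. CPM were scaled within each cell type, while the fitted log2 differences used a joint scaling of all samples. The TMM factor of WT SPM replicate 2, for example, was 0.877 within SPMs and 0.490 in the joint scaling. Ratios of mean CPM between cell types therefore differ from the fitted log2 differences, which are the values on a common scale. Members that were below the filter within SPMs or lung macrophages passed that of the single fit through their monocyte counts, so that the count of members called is no support. In WT samples all 10 members were called higher in monocytes than in SPMs, beside 20.1% of all genes higher and 21.8% lower, and all 10 higher than in lung macrophages, beside 24.4% higher and 39.5% lower. With RLE in place of TMM scaling, the median of all genes moved by -0.16 (log2) in the first of these contrasts, and all 10 calls were the same. Among the 5 members with at least 10 reads per library in WT SPMs, the smallest gap was that of Cebpe, with means of 120 and 3.79 CPM (log2 difference 3.81, SE 0.55, adjusted p = 3.27e-06, edgeR). Prtn3 followed, with means of 2282 and 38.1 CPM (log2 difference 4.72, SE 0.55), and Lcn2 had the smallest gap to the lung, with 1421 and 12.003 CPM (log2 difference 6.89, SE 0.91). Elane, with a mean of 9995 CPM in WT monocytes, rested on 21 reads over the 4 WT SPM samples, and Camp, with 9055 CPM, on 4 reads.

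Between WT SPMs and WT lung macrophages, 5 members were called higher in SPMs, which are Elane, Mpo, Prtn3, Ctsg and Cebpe, beside 23.2% of all genes. The calls of Elane and Mpo rested on 21 reads against 1 and on 25 reads against 5, with 0 Mpo reads in 2 of the 4 WT SPM samples, and both genes were below the filter within either cell type. Lcn2 was called lower in SPMs (means of 1.21 and 12.003 CPM, log2 difference -2.11, SE 0.87, adjusted p = 0.036, edgeR), beside 39.1% of all genes. That call was lost when any of 5 single libraries was left out, WT SPM replicates 1, 3 or 4 or WT lung replicates 1 or 2 (adjusted p up to 0.104, with a range of 0.0101 to 0.104 over all alternatives). Camp, Ngp, Ltf and Ly6g were not called. Among ACKR2-/- samples, contrasts added after the data were seen, all 10 members were again called higher in monocytes than in SPMs, beside 19.5% of all genes higher and 20.8% lower, and than in lung macrophages, beside 24.3% higher and 37.6% lower. The call of Ly6g against SPMs, on 26 SPM reads, was lost in DESeq2 (adjusted p = 0.0556). Between ACKR2-/- SPMs and lung macrophages, Elane, Prtn3, Ctsg, Camp and Cebpe were called higher in SPMs and 0 lower, beside 24.7% and 38.9% of all genes. The 20 Camp reads of these SPMs were all in replicate 4, against 2 reads in the lung, and Elane had 31 reads against 2.

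Ordered by their level per kb in WT SPMs, Prtn3 came first at 21.998 CPM per kb, followed by Ctsg at 6.02 and Cebpe at 3.06. In the lung Lcn2 came first at 4.58 CPM per kb in samples labelled WT, and the next, Ngp at 0.374, Prtn3 at 0.319 and Ltf at 0.313, did not differ beyond their spread over samples. The order thus changed with the cell type, from Ngp, Camp and Elane in monocytes to Prtn3 in SPMs and Lcn2 in the lung. By position, Camp, Ngp and Ltf lie on chromosome 9 as Ackr2 does, 12.05, 11.5 and 10.9 Mb from it, and the other 7 members lie on other chromosomes.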

How the data were processed

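RNA of FACS sorted cells was amplified by the SMARTer method and sequenced as paired-end reads. Gene-level raw counts were deposited by the authors in 1 table per cell type, and the submitters' processing notes name HISAT2 2.0.5, featureCounts 1.5.0-p3, DESeq2 and mm10. The lung table also held 5 lines that name no gene, 54.4% to 58.3% of its counts per sample, which were left out, and its counting may have differed. Columns were matched to samples by name, with 0 left unmapped. Positions of 10 of 10 members equal GENCODE M21.

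Within each cell type, counts were filtered by filterByExpr (minimum count 10), scaled by TMM and compared by the quasi-likelihood test in edgeR 4.0.16 (R 4.3.3) with Benjamini-Hochberg adjustment. CPM are counts over library sizes scaled within each cell type, so they are not on a common scale between cell types. Where counts are 0 a floor of 3 counts was used, which covers counting error only. The 95% intervals of log2 fold changes are the fitted value with its SE and carry the spread between samples. Contrasts between cell types used 1 fit of all samples with a joint TMM scaling. Their fitted values are given where groups averaged at least 10 reads per library. Smallest exact permutation p-values are 0.029 and 0.0079. Alternatives were DESeq2 1.42.0, RLE, other filters, the robust fit, a replicate block, the adjusted p alone and samples left out. The labels do not say that replicates are separate animals in the lung, so p-values measure the spread between samples. Replicates differed beyond sampling noise (44 pairs, smallest chi-square per degree of freedom 11.3, 0 identical).

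Members and lists were chosen with earlier results of these data known. Named genes are all members, and from each list the called genes, the 2 most abundant and the 2 with the largest difference, with the 5 genes most like each pattern. DESeq2 calls and markers that move with a result are also named. On simulated monocyte counts (13246 genes), edgeR recovered 64% of log2 changes of 1 and 87% of changes of 2, in SPMs (12997 genes) 10% and 81%, and in the lung (16824 genes) 7% and 58%. Of the genes called in these tests for monocytes, SPMs and lung, 6.21%, 4.21% and 2.99% were false in edgeR and 14.6%, 19.2% and 29.9% in DESeq2.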

Additional observations from a re-analysis of the deposited data

Results flagged for a closer look

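Of 36 checks of a member within a group, 1 found a sample far from the others, and chance gives about 1 in 20. Ngp was at 1.96 CPM (50 reads) in the lung library labelled WT replicate 4 and at 0 to 0.324 CPM in the other 4 libraries labelled WT.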

How the results depend on the processing

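In monocytes 0 members were called, and 2 were called by DESeq2 (Lcn2, Ly6g), 2 without a filter on low counts (the same 2), 3 with the replicate block (those and Ltf, adjusted p = 0.0407) and 0 to 1 when single samples were left out (1 without ACKR2-/- replicate 1, ACKR2-/- replicate 2 or WT replicate 3). Over all genes 168 were called there, 540 by DESeq2, 346 without the filter, 413 without ACKR2-/- replicate 3, 96 without ACKR2-/- replicate 4, 76, 82, 99 and 87 without WT replicates 1 to 4, 112 in the fit of all groups and 1136 without ACKR2-/- replicates 3 and 4. In SPMs 1 member, Prtn3, was called without the filter, and over all genes 6 were called, 52 without the filter, 30 by DESeq2 and 3 to 8 with a sample left out. In the lung all counts of members were 0 and DESeq2 called 15 genes. The causes were not tested. The labels do not say whether same-numbered samples were handled together, so the block rests on a pairing that is not known. Deviations of same-numbered samples correlated at -0.13 to 0.35 in monocytes, -0.11 to 0.00 in SPMs and -0.10 to 0.68 in the lung. Of the samples, 2 of 8, 0 of 8 and 3 of 10 correlated best with their own number. So few pairs cannot decide whether the samples were paired. With the block Ctsg was at 0.34 and Ltf at 0.10 in SPMs.

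These log2 fold changes turned in sign, all from values that were not called. Without ACKR2-/- monocyte samples 3 and 4 they were 0.29 for Elane, 0.01 for Mpo, 0.52 for Prtn3, 0.40 for Ctsg and 0.09 for Camp. Without ACKR2-/- SPM samples 1 and 4 they were 0.14 for Ctsg, 0.21 for Ltf and -0.42 for Lcn2. In SPMs Ctsg was at 0.01 in the fit of all groups and Ltf at 0.01 without a filter. For the genotype effect of monocytes against SPMs, Ctsg was at 0.05 and Cebpe at 0.03 in DESeq2, and at 0.03 and 0.04 with RLE. When single samples were left out, Ctsg ran from -0.26 to 0.16 and Prtn3 from -0.37 to 0.21 in monocytes, Ctsg from -0.39 to 0.38 and Ltf from -0.31 to 0.46 in SPMs, and Ltf from -0.15 to 0.76 in the lung. Between cell types Ltf ran from -0.20 to 0.87 (WT SPMs against lung), and the genotype effect from -0.34 to 0.27 for Cebpe and -0.47 to 0.29 for Ctsg (monocytes against SPMs), and from -0.18 to 1.16 for Lcn2 and -0.80 to 0.27 for Ltf (SPMs against lung). Of the other values, 932 kept their sign and side of the threshold. Counts of WT members called between cell types were 10 and 10 throughout for monocytes, and 6 for SPMs against lung (5 to 7 over the alternatives). In ACKR2-/- samples they were 9 in DESeq2 and 10 otherwise for monocytes against SPMs. In SPMs and the lung 5 and 8 members were too low for the test.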
